A study of Homo sapiens with 54 samples.

Results

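A set of 10 genes of the antioxidant response driven by the transcription factor NRF2 were followed through every library of the study, and each was found by its exact symbol among the 60676 genes of each table. The 10 genes were HMOX1, NQO1, TXNRD1, SRXN1, GCLM, GCLC, SLC7A11, TXN, PRDX1 and OSGIN1. RNA-seq was performed on H9 hMSN-like cells, which are neurons resembling medium spiny neurons of the striatum and were differentiated from WA09 (H9), an established line of human embryonic stem cells. All cultures therefore came from 1 line. Of 54 labelled libraries in 18 groups, 53 were analysed, with 3 per group and 2 for 5 Day, whose replicate 1 was not analysed here.

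For each of 2 doses of dopamine, 1 mM and 1 µM, cultures were dosed once (Acute) or on each of 5 days (Chronic), RNA was extracted from separate cultures at 1 h and at 24 h following the final dosing, and controls received PBS. In the time course, 1 mM dopamine was given for 2, 3, 4 or 5 days and the controls received ascorbic acid (AA). In the agonist experiment, cultures received 50 µM SKF82958 (an agonist of D1-like dopamine receptors), 50 µM quinpirole (an agonist of D2-like receptors) or water. Dopamine was given in ascorbic acid, while the controls of the 1 mM and 1 µM experiments are labelled PBS, so dopamine and its vehicle cannot be told apart there. Acute cultures were collected on an earlier culture day than Chronic cultures, and each dose had a single PBS group, so regimen and culture day cannot be told apart either. The 2 doses were separate experiments with separate controls.

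Dopamine autoxidizes in culture medium and yields reactive quinones and hydrogen peroxide. In resting cells KEAP1 holds NRF2 (encoded by NFE2L2) for degradation. When electrophiles or oxidants modify KEAP1, NRF2 accumulates, pairs with a small MAF protein and binds antioxidant response elements near its target genes. Those targets make and use glutathione and thioredoxin, reduce quinones and degrade heme, and several of them, such as HMOX1 and SLC7A11, also answer to other regulators, BACH1 and ATF4 among them.

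The promoters were searched for TGACNNNGC, the core of the antioxidant response element, on both strands in the window from 250 bases before to 50 bases after a gene's start in RefSeq's GRCh38.p14 table. That table held 8 promoters of 7 of the 10 genes, and not those of HMOX1, SLC7A11 and PRDX1. Of 35116 promoters of this length in the table, 13.3% held the letters. They were found in the GCLM promoter and in both TXNRD1 promoters, and not in the windows of NQO1, GCLC, TXN, OSGIN1 and SRXN1, which says nothing of elements outside the windows. With all libraries fitted, TXNRD1 passed against PBS in every dopamine group of the 1 mM experiment, and GCLM in none. The Chronic calls of TXNRD1 were lost without some single libraries. The 3 promoters with a match to these letters are shown because they belong to these 2 genes. The first is from chr1:93909421-93909680, minus strand, the second from chr12:104215529-104215788, plus strand, and the third from chr12:104286782-104287041, plus strand. Each ends 10 bases after the start, and capitals mark the match.
GCLM: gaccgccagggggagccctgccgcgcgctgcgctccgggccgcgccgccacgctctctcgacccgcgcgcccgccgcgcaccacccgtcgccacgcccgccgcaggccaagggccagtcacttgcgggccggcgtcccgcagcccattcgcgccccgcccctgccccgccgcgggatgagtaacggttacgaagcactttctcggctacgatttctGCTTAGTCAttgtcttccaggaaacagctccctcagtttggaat
TXNRD1, first start: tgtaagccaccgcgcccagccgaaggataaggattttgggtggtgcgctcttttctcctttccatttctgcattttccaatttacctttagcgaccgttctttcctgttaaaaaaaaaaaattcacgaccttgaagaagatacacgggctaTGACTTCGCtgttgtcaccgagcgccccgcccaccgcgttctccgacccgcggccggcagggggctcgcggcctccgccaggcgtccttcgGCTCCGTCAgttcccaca
TXNRD1, second start: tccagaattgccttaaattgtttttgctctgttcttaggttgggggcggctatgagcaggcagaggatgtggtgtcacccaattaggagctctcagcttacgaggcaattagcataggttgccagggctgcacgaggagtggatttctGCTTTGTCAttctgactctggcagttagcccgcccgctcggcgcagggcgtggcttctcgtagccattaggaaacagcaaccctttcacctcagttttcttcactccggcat
The match in GCLM lay 34 bases before the start on the opposite strand. In TXNRD1, matches lay 99 bases before the first start on the same strand, 8 bases before it on the opposite strand and, also on the opposite strand, upstream of the second start. Whether NRF2 bound any of them was not measured.

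Each library held between 137051 and 27702963 exon reads (median 11458465), and the 1 µM libraries were shallower (median 9660287) than the 1 mM libraries (median 16567508). Libraries stood apart in each of the 4 experiments. Replicate 1 of Quinpirole had 137051 exon reads and 96.7% of its gene reads in introns, and results of the agonist experiment are given with and without it. Replicate 1 of Acute 24 h 1 mM had the highest level of HMOX1, SLC7A11, GCLM, GCLC, TXNRD1, SRXN1 and OSGIN1 of all 15 libraries of its experiment, and the summed TPM of 6 neuron markers in it was 1634, against 2675 and 2904 in the other libraries of its group and 3137 to 3571 in PBS. Since the 15 libraries shared 1 estimate of spread, this library also widened the errors of comparisons it was not part of. Results of the 1 mM experiment are therefore given with and without it. At 1 µM, replicate 2 of PBS, Acute 1 h and Chronic 1 h had 12.4% to 12.8% of their exon reads on mitochondrial genes, against 4.25% to 7.50% in the other libraries of these groups (10.3% in replicate 1 of Acute 24 h), and results of this experiment are given with and without these 3 libraries. In the time course, replicate 2 of 5 Day had 12.1% of its exon reads on mitochondrial genes, against 5.70% to 8.38% in the other libraries. It also had the fewest exon reads there (8449292). As 5 Day has only 2 libraries, its results are not given without this library. All 6 neuron markers and all 12 striatal markers had a mean TPM of at least 1 in the 1 mM and PBS groups. The labels do not say whether replicates were separate differentiations, so p-values measure the spread between these samples.

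At rest the 10 genes spanned a wide range of TPM (reads per exon length, scaled to the same sum in each library). In the PBS group of the 1 mM experiment, PRDX1 (489 ± 35.7 TPM, SD, n = 3) and TXN (402 ± 19.7) were the most abundant, followed by TXNRD1 (67.7 ± 4.97), NQO1 (21.1 ± 1.62), SRXN1 (20.2 ± 0.841), GCLC (15.9 ± 1.03), GCLM (11.5 ± 0.689), SLC7A11 (7.59 ± 1.05), HMOX1 (6.68 ± 1.56) and OSGIN1 (0.727 ± 0.182). The libraries of NQO1 and SRXN1 overlapped in this order, as did those of SLC7A11 and HMOX1. The PBS group of the 1 µM experiment had a lower mean for every gene but OSGIN1 (1.00 ± 0.413 TPM), with overlapping libraries for TXNRD1 and GCLC. It had 2.22 ± 0.982 TPM of HMOX1, 1.46 ± 0.479 of SLC7A11, 11.5 ± 4.84 of NQO1, 8.61 ± 6.32 of SRXN1, 212 ± 33.3 of TXN and 311 ± 68.3 of PRDX1. These levels come from another experiment. The AA group had 9.28 ± 2.12 TPM of HMOX1 and 33.7 ± 2.81 TPM of NQO1, and the water group 13.6 ± 1.72 and 33.0 ± 2.56.

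**Figure D1:**
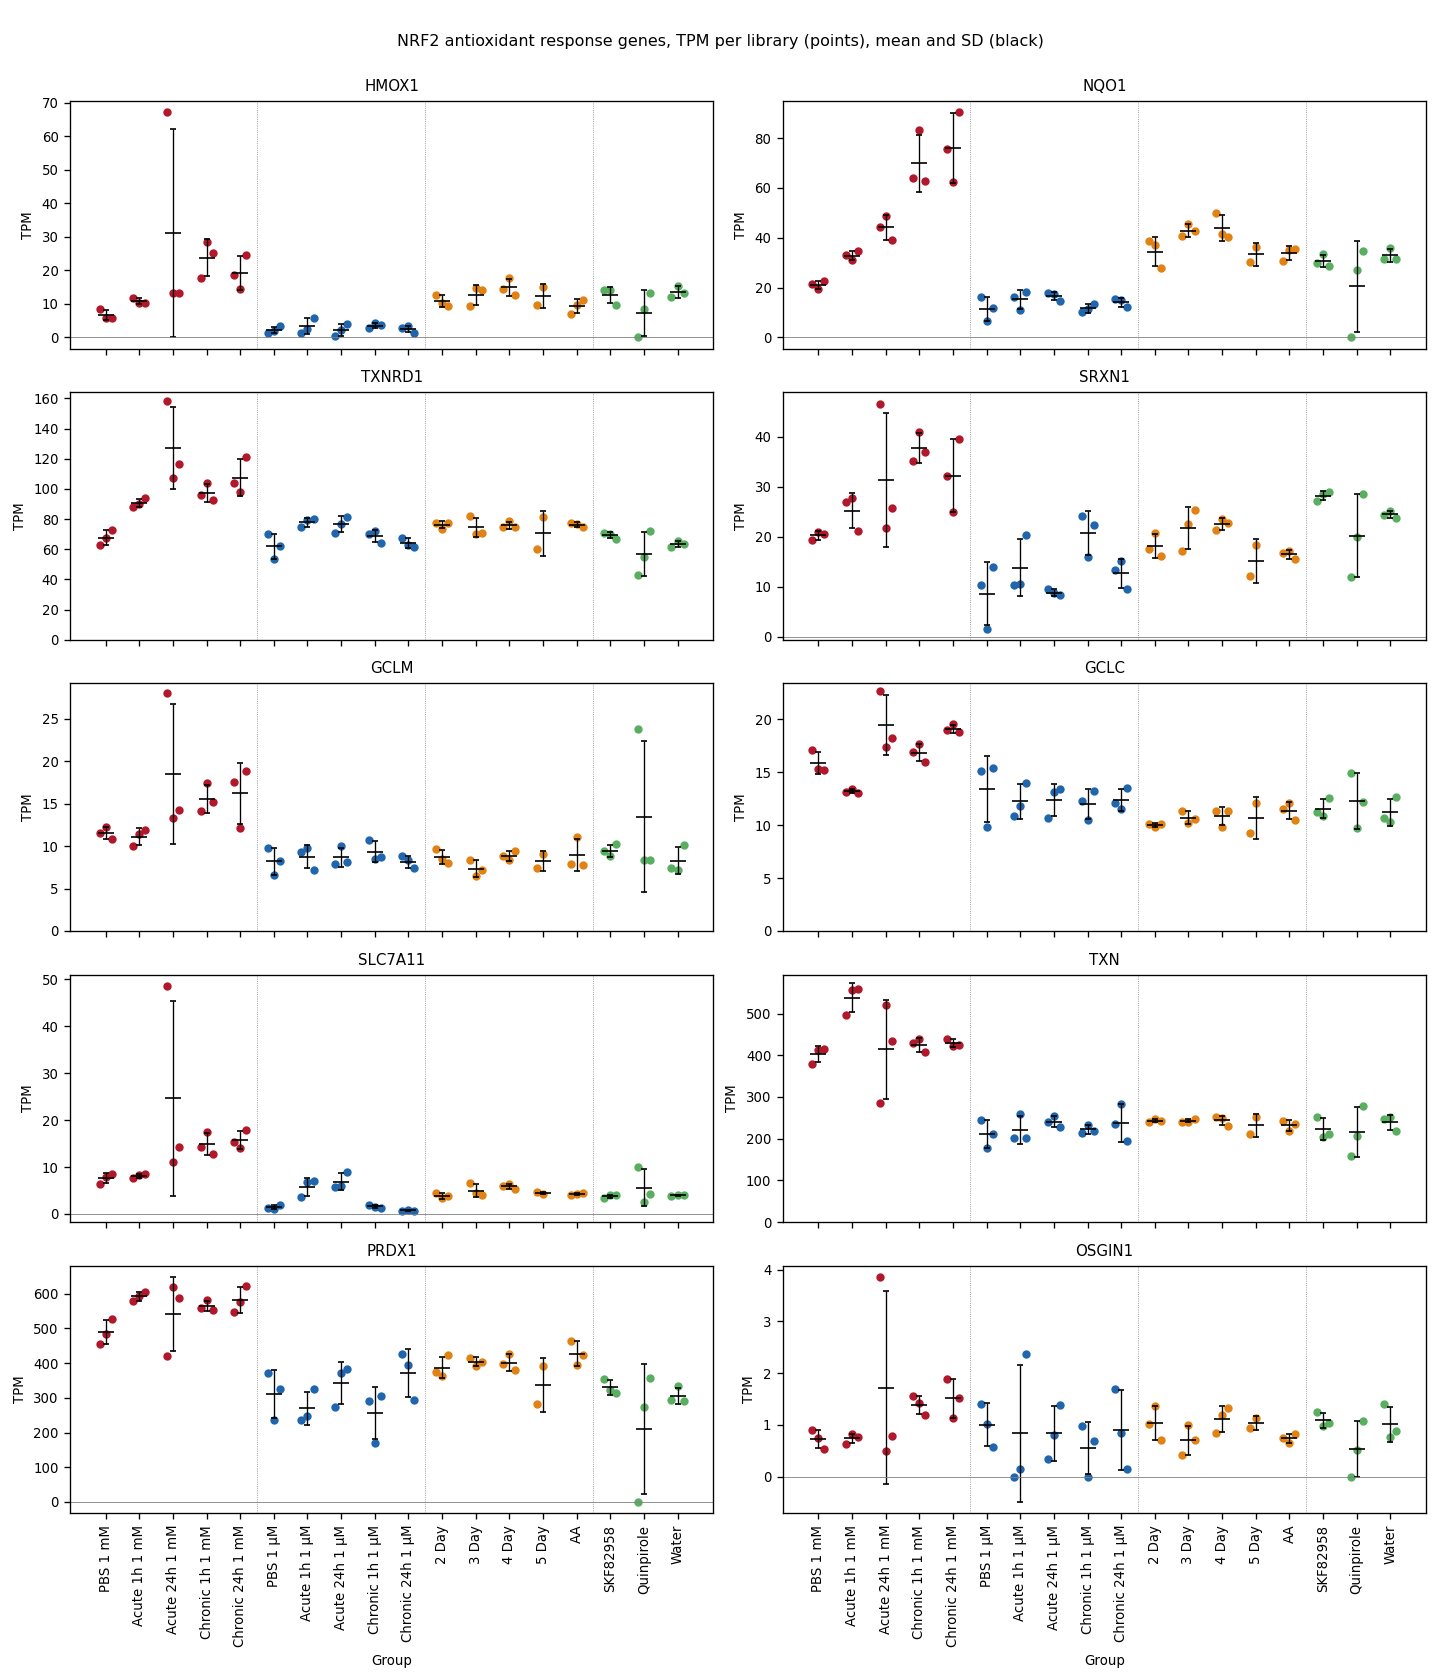
TPM of the 10 genes (vertical axis) in each library (points) by group (horizontal axis), with the group mean and SD in black in red for 1 mM, blue for 1 µM, orange for the time course and green for the agonists. NQO1 rises from 19.3 to 22.5 TPM in PBS to 62.5 to 90.3 TPM at Chronic 24 h 1 mM, and replicate 1 of Acute 24 h 1 mM lies far above its group in HMOX1 (67.1 TPM) and SLC7A11 (48.6 TPM).

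NQO1 (ENSG00000181019, GRCh38 chromosome 16, 69706996 to 69726668, minus strand), which reduces quinones to hydroquinones with 2 electrons from NADH or NADPH, rose in all 4 dopamine groups of the 1 mM experiment. The PBS libraries had 21.4, 19.3 and 22.5 TPM. Acute 1 h had 33.0, 30.9 and 34.7 TPM, Acute 24 h 44.5, 48.9 and 39.1 TPM, Chronic 1 h 63.8, 83.1 and 62.9 TPM and Chronic 24 h 75.4, 62.5 and 90.3 TPM. No dopamine library overlapped the PBS libraries, and the Chronic libraries all lay above the Acute libraries. The log2(fold change) from PBS was 0.71 ± 0.15 (SE, adjusted p = 0.0088) at Acute 1 h, 0.95 ± 0.15 (adjusted p = 0.0034) at Acute 24 h, 1.69 ± 0.15 (adjusted p = 0.00023) at Chronic 1 h and 1.82 ± 0.16 (adjusted p = 0.00027) at Chronic 24 h. Chronic 1 h was also above Acute 1 h, by 0.98 ± 0.15 on the log2 scale (adjusted p = 0.0013), as the only 1 of the 10 genes, with 5.37% of genes called higher. Without replicate 1 of Acute 24 h, 7 of the 10 were higher in that comparison and TXN lower (-0.43 ± 0.07, adjusted p = 0.00047), with 17.4% of genes called higher and 16.6% lower. Without PBS replicate 2 the Acute 1 h call was lost (0.62, adjusted p = 0.051), and the other 4 calls passed with any 1 library of their 2 groups left out.

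TXNRD1 (ENSG00000198431, chromosome 12, 104215779 to 104350307, plus strand), the cytosolic reductase that keeps thioredoxin reduced, rose in the same 4 groups by less. Its TPM was 62.9, 67.2 and 72.8 in PBS, 88.0, 90.3 and 93.7 at Acute 1 h, 158, 107 and 116 at Acute 24 h, 95.8, 104 and 92.4 at Chronic 1 h, and 104, 97.9 and 121 at Chronic 24 h. None of the dopamine libraries overlapped PBS. The log2(fold change) was 0.49 ± 0.10 (adjusted p = 0.0076), 0.78 ± 0.10 (adjusted p = 0.0013), 0.48 ± 0.10 (adjusted p = 0.031) and 0.64 ± 0.10 (adjusted p = 0.019) in that order. Chronic 1 h did not differ from Acute 1 h beyond the error (-0.01 ± 0.10, adjusted p = 0.98). The 2 Acute calls passed with any library of their groups left out. The Chronic 1 h call passed in 1 of 6 such fits, and was lost without PBS replicate 1 or 2 or any Chronic 1 h library (adjusted p up to 0.16), and the Chronic 24 h call passed in 2 of 6, being lost without PBS replicate 1 or 2 or Chronic 24 h replicate 1 or 3 (adjusted p up to 0.13).

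The other thioredoxin genes did not pass in the fit of all 15 libraries. TXN, the small disulfide reductase itself, had 380, 414 and 414 TPM in PBS and 498, 557 and 559 TPM at Acute 1 h (0.48 ± 0.19, adjusted p = 0.093), with no overlap, and 429, 440 and 407 TPM at Chronic 1 h (0.04 ± 0.19, adjusted p = 0.96). PRDX1, the abundant peroxidase that thioredoxin recycles, had 456, 485 and 527 TPM in PBS and 579, 594 and 604 TPM at Acute 1 h (0.34 ± 0.15, adjusted p = 0.14). In both genes replicate 1 of Acute 24 h was the lowest of the 15 libraries, at 286 TPM of TXN and 420 TPM of PRDX1. In the fit without it TXN (0.47 ± 0.07, adjusted p = 0.00024) and PRDX1 (0.32 ± 0.06, adjusted p = 0.0011) passed at Acute 1 h, and PRDX1 also at Acute 24 h (0.25, adjusted p = 0.022) and Chronic 24 h (0.22, adjusted p = 0.044). SRXN1, which repairs overoxidized peroxiredoxins, had 19.3, 20.98 and 20.4 TPM in PBS, 35.2, 41.0 and 36.8 TPM at Chronic 1 h (0.85 ± 0.21, adjusted p = 0.053) and 32.0, 25.0 and 39.5 TPM at Chronic 24 h (0.64 ± 0.21, adjusted p = 0.23), and both passed without replicate 1 of Acute 24 h (0.85 ± 0.14, adjusted p = 0.00073, and 0.64 ± 0.14, adjusted p = 0.012). AL121758.1 overlaps SRXN1 on the same strand. Of the exon reads of SRXN1, 15.8% mapped uniquely, and with unique reads alone its Chronic 1 h value was 0.78 ± 0.26 (adjusted p = 0.14). For PRDX1, 81.1% of the exon reads were unique.

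HMOX1 (ENSG00000100292, chromosome 22, 35380361 to 35394207, plus strand) encodes heme oxygenase 1, which splits heme into biliverdin, iron and carbon monoxide. Its PBS libraries had 8.48, 5.71 and 5.86 TPM, Acute 1 h had 11.8, 10.2 and 10.4, Chronic 1 h 17.7, 28.4 and 25.2 and Chronic 24 h 18.6, 14.4 and 24.5. Acute 24 h had 67.1, 13.3 and 13.2 TPM. Every dopamine library lay above every PBS library. In the fit of all 15 libraries HMOX1 passed only at Acute 24 h (2.02 ± 0.49, adjusted p = 0.020), with 0.76 ± 0.49 (adjusted p = 0.32) at Acute 1 h, 1.79 ± 0.48 (adjusted p = 0.076) at Chronic 1 h and 1.49 ± 0.48 (adjusted p = 0.22) at Chronic 24 h. The Acute 24 h call was lost without PBS replicate 1 (adjusted p = 0.053), 2 (0.089) or 3 (0.063). Without replicate 1 of Acute 24 h it passed in all 4 groups and was highest in the Chronic groups. HMOX1 was then 0.94 ± 0.24 (adjusted p = 0.012) at Acute 24 h, 0.75 ± 0.22 (adjusted p = 0.015) at Acute 1 h, 1.79 ± 0.21 (adjusted p = 4.7e-05) at Chronic 1 h and 1.495 ± 0.21 (adjusted p = 0.0012) at Chronic 24 h.

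SLC7A11 (ENSG00000151012, chromosome 4, 138164097 to 138242349, minus strand) is the cystine importer that feeds glutathione synthesis, and GCLC and GCLM are the catalytic and modifier subunits of glutamate-cysteine ligase, its rate-limiting enzyme. SLC7A11 had 6.45, 7.81 and 8.51 TPM in PBS and 7.65, 8.23 and 8.53 TPM at Acute 1 h, which overlapped. It had 48.6, 10.996 and 14.2 TPM at Acute 24 h, 14.3, 17.4 and 12.8 at Chronic 1 h and 15.4, 14.2 and 17.8 at Chronic 24 h, all above PBS. The Acute 24 h value passed (1.51 ± 0.37, adjusted p = 0.021), also without replicate 1 of that group, where it fell to 0.68 ± 0.14 (adjusted p = 0.0050), and was lost without PBS replicate 1 or 2 (adjusted p = 0.081 and 0.080). Chronic 1 h (0.93 ± 0.37, adjusted p = 0.22) and Chronic 24 h (1.03 ± 0.37, adjusted p = 0.28) passed only without that library (0.92 ± 0.13, adjusted p = 0.00024, and 1.03 ± 0.13, adjusted p = 0.00053).

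The 2 ligase genes moved less. GCLM ranged from 10.8 to 12.2 TPM in PBS, from 9.96 to 11.9 at Acute 1 h, from 14.2 to 17.4 at Chronic 1 h and from 12.2 to 18.9 at Chronic 24 h, with 28.0, 13.3 and 14.2 TPM at Acute 24 h, all above PBS. It did not pass against PBS in the fit of all 15 libraries (0.39 ± 0.21, adjusted p = 0.39, at Chronic 1 h). GCLM passed at Chronic 24 h without replicate 1 of Acute 24 h (0.46 ± 0.13, adjusted p = 0.043), at Acute 24 h without replicate 2 (0.66, adjusted p = 0.047) or 3 (0.66, adjusted p = 0.046) of that group, and at Chronic 1 h when only the 2 groups were fitted (adjusted p = 0.013). GCLC had 17.1, 15.3 and 15.2 TPM in PBS and 13.2, 13.4 and 13.1 TPM at Acute 1 h, the only case of a gene of the 10 with all treated libraries below all PBS libraries at 1 mM (-0.20 ± 0.08, adjusted p = 0.12), as 30.5% of genes did there. At Acute 24 h GCLC had 22.7, 17.4 and 18.3 TPM and was above Acute 1 h by 0.36 ± 0.08 (adjusted p = 0.036, with 2.11% of genes called higher), a call lost without any 1 of the Acute 1 h libraries (adjusted p from 0.11 to 0.13). GCLC also passed at Chronic 24 h without replicate 1 of Acute 24 h (0.24 ± 0.07, adjusted p = 0.036). OSGIN1, an oxidative stress-induced growth inhibitor, was near the floor, with 0.900, 0.743 and 0.538 TPM in PBS and 1.55, 1.42 and 1.20 TPM at Chronic 1 h (0.89 ± 0.55, adjusted p = 0.46), from 12 to 19 reads in PBS. At Acute 24 h its value was 0.98 in the fit of all 15 libraries and -0.23 without replicate 1 of that group, and neither passed. MLYCD overlaps OSGIN1 on the same strand and had 11603 exon reads over all libraries, against 947 of OSGIN1.

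Counted together, 2 of the 10 genes passed at Acute 1 h 1 mM, 4 at Acute 24 h, 2 at Chronic 1 h and 2 at Chronic 24 h, all higher than PBS. Of the 17804 genes tested, 8.04%, 8.38%, 1.27% and 0.118% were called higher in these comparisons. The median log2(fold change) of the 10 genes was 0.36, 0.65, 0.67 and 0.64, beside 0.011, 0.022, 0.0012 and 0.011 over all genes tested. Without replicate 1 of Acute 24 h, 6, 5, 6 and 9 of the 10 passed, with GCLC at Acute 1 h the only one lower, and 19.9%, 11.1%, 9.25% and 3.06% of 18178 genes were called higher (and 19.9% lower at Acute 1 h). At Chronic 24 h the 9 were all but TXN (0.06 ± 0.08, adjusted p = 0.66). Of the 10, 6, 7, 8 and 9 had all dopamine libraries above all PBS libraries in TPM, as did 23.0%, 25.0%, 25.9% and 13.7% of genes tested.

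**Figure D2:**
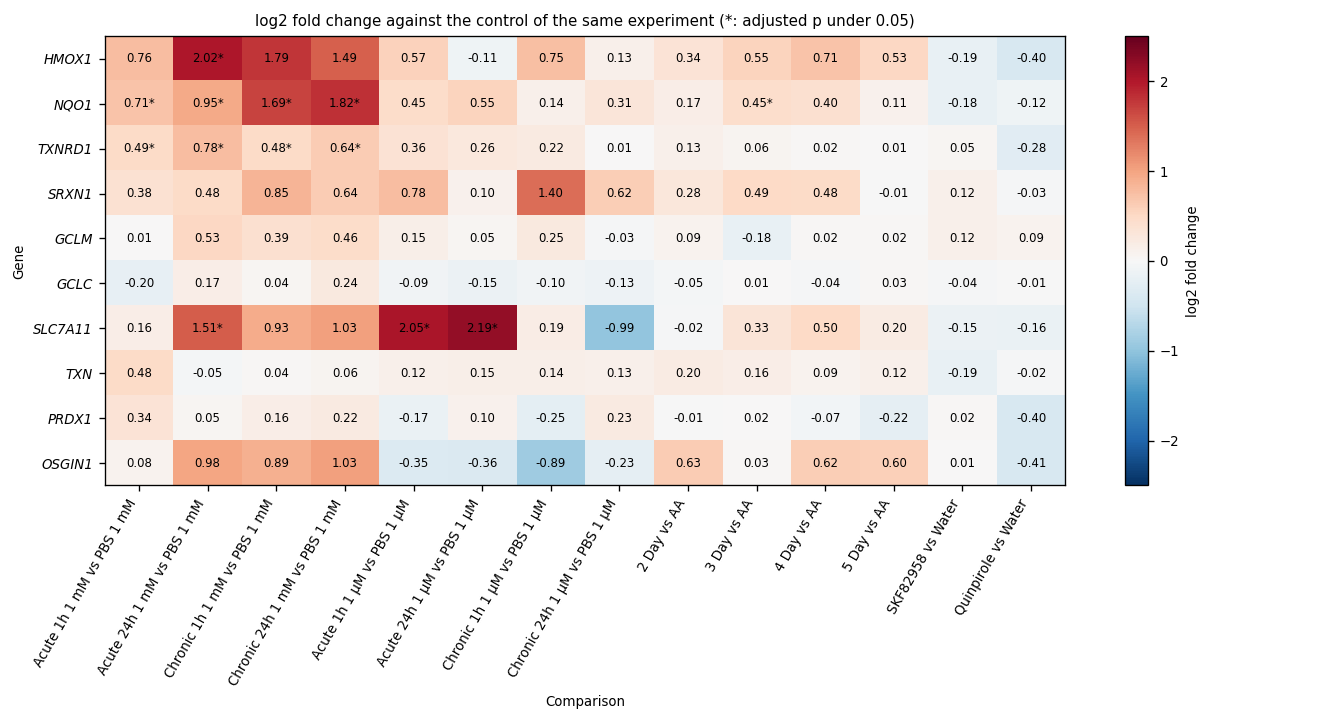
Log2(fold change) of each gene (rows) against the control of its own experiment (columns), with colour and printed value on the same scale and an asterisk where the adjusted p is under 0.05. NQO1 and TXNRD1 carry an asterisk in all 4 comparisons of 1 mM, and SLC7A11 in the 2 Acute comparisons of 1 µM.

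**Figure D3:**
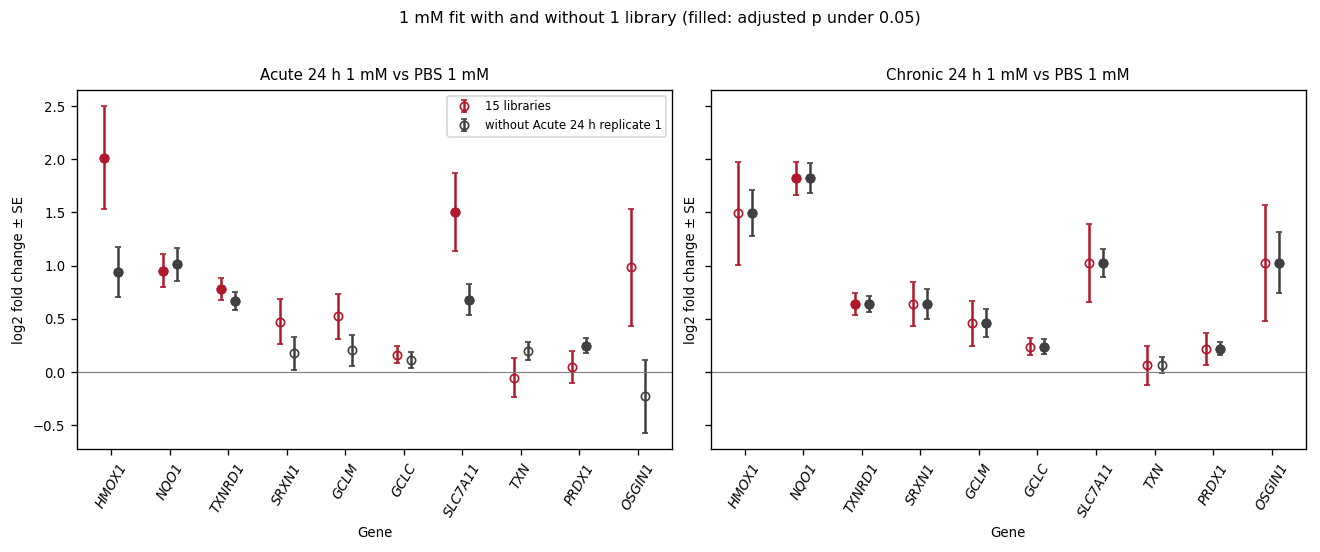
Log2(fold change) ± SE (vertical axis) of the 10 genes (horizontal axis) at Acute 24 h and Chronic 24 h 1 mM from the fit of 15 libraries (red) and from the fit without replicate 1 of Acute 24 h (dark grey), filled where the adjusted p is under 0.05. At Chronic 24 h the values hardly move but the errors shrink, and 2 filled points become 9.

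Other measures moved with these groups. The share of gene reads in introns was 12.3% to 13.2% at Acute 1 h and 12.5% to 15.9% at Acute 24 h, against 19.5% to 21.8% in PBS and 18.9% to 22.4% in the Chronic groups. With total gene reads (exon and intron) in place of exon reads, 5 of the 10 genes passed at Acute 1 h, SRXN1 (0.67, adjusted p = 0.027), TXN (0.71, adjusted p = 0.0039) and PRDX1 (0.66, adjusted p = 0.0033) with them, and 18.5% of 26006 genes were called higher. The summed TPM of 5 astrocyte markers was 194 to 206 at Chronic 1 h and 152 to 201 at Chronic 24 h, against 115 to 151 in PBS, and that of 5 progenitor markers was 1114 to 1203 and 1090 to 1201, against 1270 to 1347. Progenitor markers were at 1383 to 1458 at Acute 1 h and 1402 to 1444 at Acute 24 h. At Acute 1 h astrocyte markers were at 106 to 111 and 12 striatal markers at 144 to 153, against 167 to 186 in PBS. Their part in the levels of the 10 genes was not tested. In these bulk samples, a change in the share of a cell type and a change of RNA per cell cannot be told apart.

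At 1 µM, SLC7A11 was the only one of the 10 to pass in the fit of all 15 libraries. It had 1.27, 1.10 and 2.00 TPM in PBS, from 32 to 48 reads, 3.56, 6.84 and 7.02 TPM at Acute 1 h and 5.80, 5.95 and 8.99 TPM at Acute 24 h. Chronic 1 h had 1.83, 1.58 and 1.38 TPM and Chronic 24 h 0.716, 0.817 and 0.693 TPM. The Acute libraries thus lay above PBS (as in 9.98% and 12.1% of genes tested), Chronic 1 h overlapped PBS, and Chronic 24 h lay below it (as in 8.24%). SLC7A11 was higher than PBS by 2.05 ± 0.32 (adjusted p = 0.0016) at Acute 1 h and 2.19 ± 0.32 (adjusted p = 0.0021) at Acute 24 h, with 0.19 ± 0.32 (adjusted p = 0.87) at Chronic 1 h and -0.99 ± 0.33 (adjusted p = 0.87) at Chronic 24 h. Chronic 1 h was below Acute 1 h by 1.86 on the log2 scale (-1.86 ± 0.32, adjusted p = 0.011), where 0.647% of genes were called lower. That call was lost without Chronic 1 h replicate 1 (adjusted p = 0.060) or 3 (0.075). The Acute 1 h call was lost when only its 2 groups were fitted (2.04, adjusted p = 0.10). In the fit without the 3 libraries of high mitochondrial share, SLC7A11 still passed at Acute 1 h (1.74 ± 0.33, adjusted p = 0.0041), at Acute 24 h (2.17 ± 0.31, adjusted p = 0.00062) and between Chronic 1 h and Acute 1 h (-1.70 ± 0.33, adjusted p = 0.011), where 5.57% and 5.52% of 16783 genes were called higher and 2.27% lower.

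The quinone, thioredoxin and heme genes did not pass at 1 µM in the fit of all 15 libraries. NQO1 had 16.2, 6.50 and 11.9 TPM in PBS and 16.3, 11.1 and 18.3 TPM at Acute 1 h (0.45 ± 0.24, adjusted p = 0.32), and 15.3, 15.1 and 12.1 TPM at Chronic 24 h (0.31 ± 0.24, adjusted p = 0.87). HMOX1 had 1.46, 1.88 and 3.33 TPM in PBS, from 9 to 19 reads, and 2.68, 4.17 and 3.85 TPM at Chronic 1 h (0.75 ± 0.67, adjusted p = 0.70), so that only large changes were detectable. TXNRD1 had 70.1, 53.9 and 62.0 TPM in PBS and 74.6, 79.2 and 80.1 TPM at Acute 1 h, with no overlap (0.36 ± 0.16, adjusted p = 0.20), and 71.0, 77.1 and 81.5 TPM at Acute 24 h (0.26, adjusted p = 0.45). Without the same 3 libraries TXNRD1 passed at Acute 24 h (0.32 ± 0.09, adjusted p = 0.037). SRXN1 had 10.3, 1.60 and 13.9 TPM in PBS and 24.1, 15.8 and 22.2 TPM at Chronic 1 h (1.40 ± 0.43, adjusted p = 0.12), clear of PBS as 6.5% of genes were. This passed with DESeq2 (1.41, adjusted p = 0.032, with 3.45% of genes called higher), but with unique reads it was 1.80 ± 0.82 (adjusted p = 0.32), and without the 3 libraries, PBS replicate 2 with its 1.60 TPM among them, 1.001 ± 0.29 (adjusted p = 0.052). OSGIN1 had no exon read in replicate 1 of Acute 1 h and replicate 2 of Chronic 1 h, which allows up to 0.344 and 0.235 TPM by counting error. Thus 1, 1, 0 and 0 of the 10 genes passed higher in the 4 comparisons with PBS, where 3.25%, 1.4%, 1.75% and 0.0% of 16541 genes were called higher. Without the 3 libraries 1, 2, 0 and 0 passed, where 5.57%, 5.52%, 4.05% and 0.0% were called higher. At Chronic 1 h and Chronic 24 h, 1 of the 10 each had an unadjusted p under 0.05, as did 14.6% and 3.68% of all genes tested. Their median log2(fold change) was 0.26, 0.10, 0.17 and 0.069, beside 0.020, 0.012, 0.0025 and 0.016 over all genes tested.

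The doses were compared in a joint fit of both experiments, as the change from PBS at 1 mM minus the change from PBS at 1 µM. NQO1 differed at Chronic 1 h, by 1.54 ± 0.28 (adjusted p = 0.016), and SLC7A11 at Acute 1 h, by -1.86 ± 0.49 (adjusted p = 0.042), so that the change of NQO1 was the larger at 1 mM and that of SLC7A11 the larger at 1 µM. Of the 18390 genes tested, 0.0653% were called with a larger change at 1 mM at Chronic 1 h, and 0.919% with a smaller one at Acute 1 h. At Chronic 24 h the difference of NQO1 was 1.51 ± 0.28 (adjusted p = 0.068) and that of SLC7A11 2.00 ± 0.52 (adjusted p = 0.22), where 0.0109% of genes were called. Without replicate 1 of Acute 24 h 1 mM both passed (1.52 ± 0.27 and 2.00 ± 0.35, both adjusted p = 0.026), with 0.0106% of genes called higher. At Acute 24 h none of the 10 passed, where 0.663% of genes were called, and 2 had an unadjusted p under 0.05 (13.7% of all genes). At Chronic 24 h, 4 had one (6.81% of all genes). At Acute 24 h SLC7A11 passed without replicate 1 of Acute 24 h 1 mM (-1.51 ± 0.34, adjusted p = 0.036), with 0.159% of genes called lower. HMOX1 differed by 0.17 ± 0.78 at Acute 1 h, 2.06 ± 0.78 at Acute 24 h, 1.03 ± 0.76 at Chronic 1 h and 1.31 ± 0.76 at Chronic 24 h (adjusted p from 0.24 to 0.96), and TXNRD1 by 0.15 ± 0.18 to 0.62 ± 0.18 (adjusted p from 0.20 to 0.80), so no difference between doses was shown for either. The NQO1 call at Chronic 1 h was lost without any of 5 libraries (PBS 1 mM replicate 1 or 2, Chronic 1 h 1 mM replicate 2, PBS 1 µM replicate 1 or Chronic 1 h 1 µM replicate 1), with adjusted p up to 0.081, and the SLC7A11 call without any of 9 of 12, with adjusted p up to 0.11. Without the 3 libraries of 1 µM, NQO1 passed at Chronic 1 h (1.86 ± 0.27, adjusted p = 0.0018, with 0.143% of genes called higher) and at Chronic 24 h (1.69 ± 0.25, adjusted p = 0.013, with 0.0053%), while the SLC7A11 call at Acute 1 h was lost (-1.55 ± 0.57, adjusted p = 0.16, with 0.943% of genes called lower). With the dose in its own experiment, dose and experiment cannot be told apart. Marker levels differed between the 2 PBS groups. The summed TPM of 6 neuron markers was 1885 to 2342 at 1 µM, against 3137 to 3571 at 1 mM. Progenitor markers stood at 1623 to 1861 against 1270 to 1347, and astrocyte markers at 64.0 to 72.0 against 115 to 151. The sum of 4 markers of MGE (medial ganglionic eminence) interneurons stood at 2.74 to 3.53 against 34.2 to 62.0, but only 1 of the 4 had a mean TPM of at least 1 in either PBS group. Over all libraries the medians were 18.0 TPM for SST, 0.106 for LHX6 and 0.0 for NKX2-1 and LHX8. That sum is thus no measure of MGE interneurons as a type. The part of these differences in the dose comparison was not tested.

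**Figure D4:**
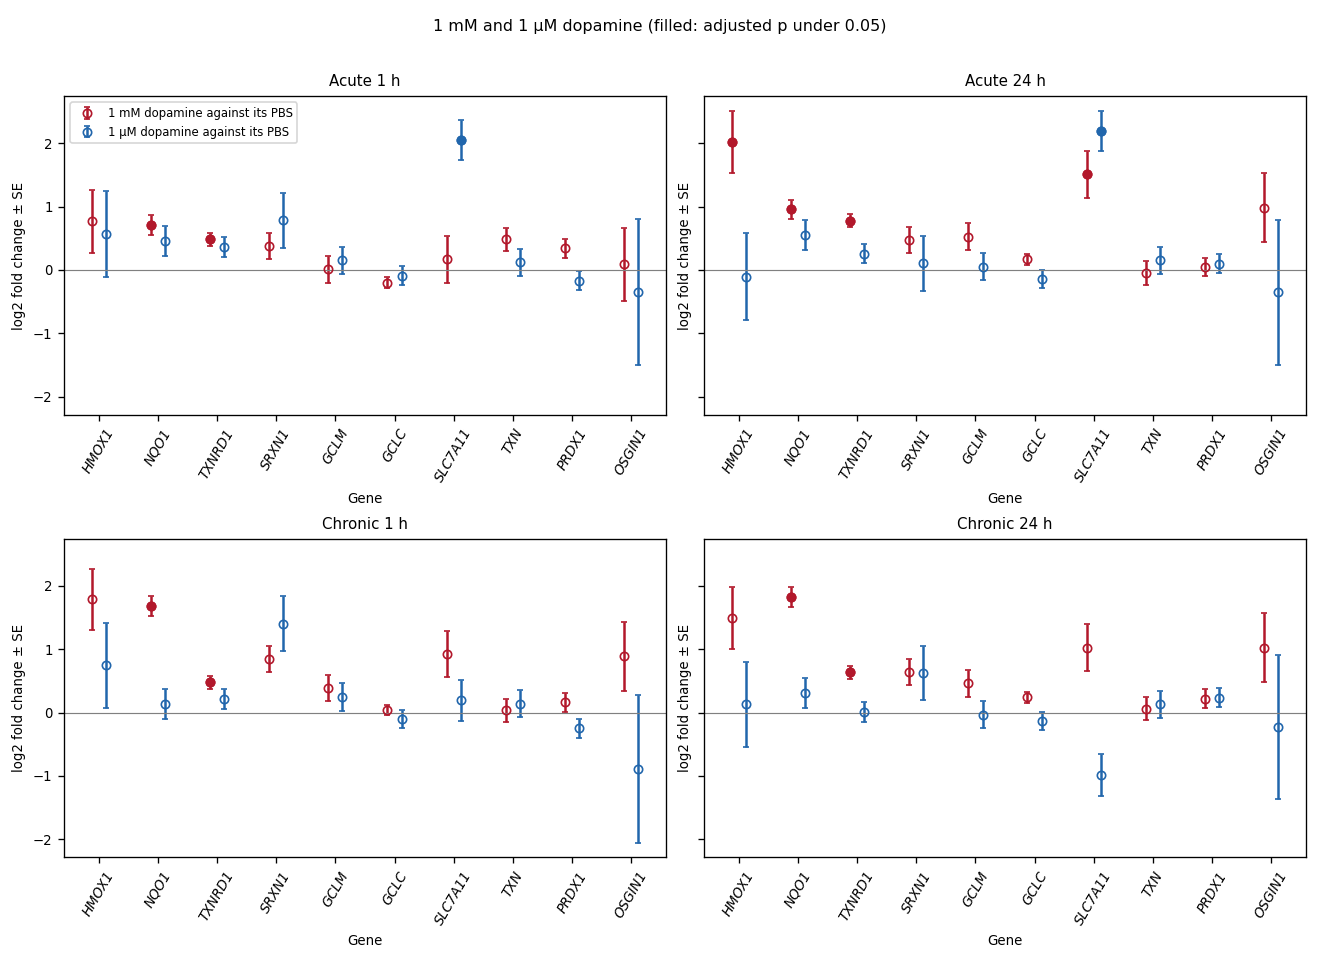
Log2(fold change) ± SE (vertical axis) of the 10 genes (horizontal axis) for 1 mM (red) and 1 µM dopamine (blue), each against its own PBS, in a panel per regimen, filled where the adjusted p is under 0.05. SLC7A11 reaches 2.05 at 1 µM and 0.16 at 1 mM at Acute 1 h, while NQO1 reaches 1.69 at 1 mM and 0.14 at 1 µM at Chronic 1 h.

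In the time course dopamine was compared with its vehicle. NQO1 had 30.5, 35.1 and 35.6 TPM in AA, 38.7, 37.1 and 27.7 at 2 Day, 40.6, 45.6 and 42.5 at 3 Day, 50.0, 41.4 and 40.3 at 4 Day and 30.2 and 36.5 at 5 Day. Only the 3 Day and 4 Day libraries were clear of AA, as in 8.34% and 14.3% of genes tested. NQO1 was the only one of the 10 genes to pass, at 3 Day (0.45 ± 0.12, adjusted p = 0.040), where 4.77% of 16768 genes were called higher. That call was lost without 3 Day replicate 2 (adjusted p = 0.17) or 3 (0.10) and without AA replicate 1 (0.18) or 2 (0.12). Without 3 Day replicate 1, HMOX1 (0.76, adjusted p = 0.031) and SRXN1 (0.65, adjusted p = 0.0052) passed with it. HMOX1 had 7.05, 9.55 and 11.3 TPM in AA and 14.52, 17.7 and 12.8 TPM at 4 Day, its highest day (0.71 ± 0.22, adjusted p = 0.076). At 4 Day the libraries of 5 genes, HMOX1, NQO1, SRXN1, SLC7A11 and OSGIN1, lay above all AA libraries, and 4 of the 10 had an unadjusted p under 0.05, as did 20.0% of all genes tested. No gene of the 10 passed at 2 Day, 4 Day or 5 Day, where 1.89%, 2.58% and 1.23% of genes were called higher, and none differed across the 4 days (1.07% of genes were called). An unadjusted p under 0.05 was seen for 1 of the 10 at 2 Day, 1 at 5 Day and 1 across the days, and for 20.3%, 15.6% and 17.5% of all genes. The summed TPM of 5 mesenchymal markers was 167 to 223 in AA, 214 to 323 at 2 Day, 255 to 443 at 3 Day, 321 to 351 at 4 Day and 251 and 405 at 5 Day. Progenitor markers were at 1332 to 1404 in AA, 1220 to 1285 at 3 Day and 1145 to 1221 at 4 Day. Their part in the values of the time course was not tested.

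**Figure D5:**
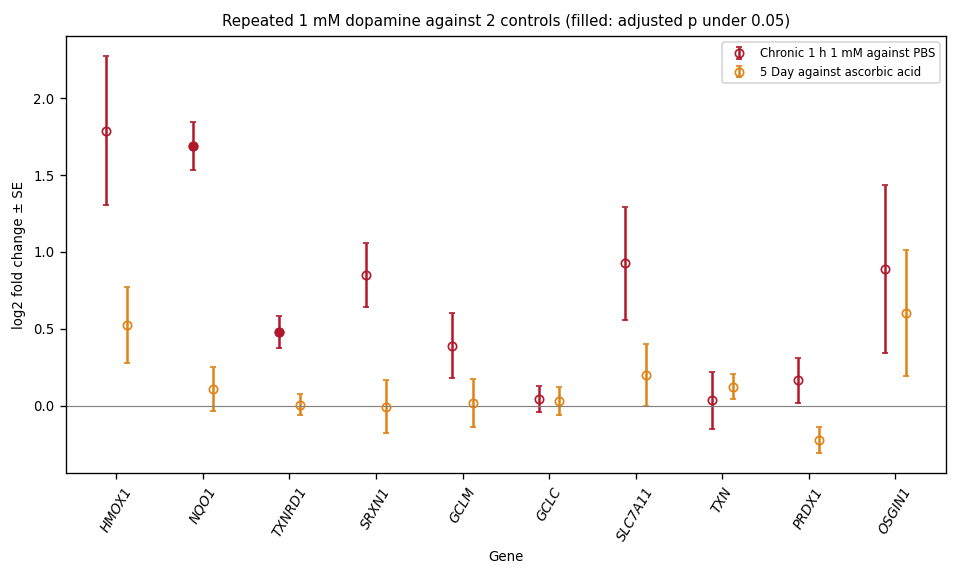
Log2(fold change) ± SE (vertical axis) of the 10 genes (horizontal axis) for Chronic 1 h 1 mM against PBS (red) and 5 Day against ascorbic acid (orange), filled where the adjusted p is under 0.05. NQO1 stands at 1.69 in the first and 0.11 in the second.

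The repeated 1 mM dosing of both experiments was also compared, after the data had been seen, as the change of Chronic 1 h from PBS minus the change of 5 Day from AA. NQO1 was the only 1 of the 10 genes to pass (1.58 ± 0.22, adjusted p = 0.0012), where 0.223% of 18349 genes were called higher. Without replicate 1 of Acute 24 h 1 mM, 5 of the 10 passed, HMOX1 (1.25, adjusted p = 0.029), TXNRD1 (0.47, adjusted p = 0.0090), SRXN1 (0.85, adjusted p = 0.027) and PRDX1 (0.38, adjusted p = 0.036) beside NQO1 (1.57, adjusted p = 0.00010), and 2.83% of genes were called higher. No library of the groups compared was left out in turn here, so the hold of single libraries on these calls was not tested. The experiments differ in their control and in their cultures, which cannot be told apart.

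None of the 10 genes passed with either agonist. In the water group, HMOX1 had 12.1, 15.5 and 13.4 TPM, with 14.05, 14.1 and 9.76 after SKF82958 (-0.19 ± 0.34), and NQO1 had 31.7, 35.9 and 31.4 TPM with 30.05, 33.6 and 28.6 (-0.18 ± 0.20). SRXN1 (24.4, 25.2 and 23.8 TPM in water and 27.2, 28.4 and 29.0 after SKF82958, 0.12 ± 0.15) and TXNRD1 (0.05 ± 0.43) did not overlap, in a comparison where 17.7% of genes had all SKF82958 libraries above all water libraries. No gene of the 10 had an unadjusted p under 0.05 with either agonist, with or without replicate 1 of Quinpirole, and 0.0124% and 0.0% of 16132 genes were called (0.624% and 0.184% without that library). At that unadjusted p stood 1.15% and 2.17% of all genes. Replicate 1 of Quinpirole had no exon read of HMOX1, NQO1, PRDX1 and OSGIN1, which at its depth allows up to 42.0, 32.5, 64.3 and 17.4 TPM. Replicates 2 and 3 had 8.62 and 13.2 TPM of HMOX1 and 27.2 and 34.6 TPM of NQO1.

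Other genes of the pathway were counted from 7 lists (regulators, glutathione, thioredoxin and peroxiredoxin, NADPH supply, quinone and carbonyl detoxification, heme and iron, other antioxidant enzymes). The lists were chosen with earlier results of these data known, so their shares beside those of all genes are descriptive and not a test. At Chronic 1 h and at Chronic 24 h 1 mM, 6 of 67 tested genes (8.96%) passed higher and 0 lower, beside 1.27% and 0.118% of all genes tested higher. These were AKR1C3, a reductase of ketosteroids and carbonyls (2.19 ± 0.25, adjusted p = 0.00081, and 2.25 ± 0.25, adjusted p = 0.0041), PIR, an iron-binding nuclear protein (1.04 ± 0.18 at both times), EPHX1, microsomal epoxide hydrolase (0.67 ± 0.10 and 0.74 ± 0.10), and 3 named after their values were seen, the autophagy receptor SQSTM1 (0.77 and 0.73) and the ferritin chains FTH1 (0.46 and 0.47) and FTL (0.53 and 0.56). The median over the 67 was 0.061 and 0.053, beside 0.0012 and 0.011 over all genes. With replicate 1 of Acute 24 h left out, 19 and 15 of the 67 passed higher (28.4% and 22.4%, beside 9.25% and 3.06% of all genes) and 2 and 3 lower. AKR1C3 rose from 0.812 ± 0.120 TPM in PBS to 3.86 ± 0.511 and 3.99 ± 0.264 TPM, with 0.536 ± 0.154 TPM at Acute 1 h.

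At the Acute times the lists were mixed. At Acute 1 h 1 mM, 6 of 67 passed higher (8.96%, beside 8.04% of all genes), with the small MAF gene MAFF (0.95 ± 0.27, adjusted p = 0.029) and the methionine sulfoxide reductase MSRB1 (0.93 ± 0.17, adjusted p = 0.0033) leading, and 2 lower (2.99%, beside 7.94%), with the glutathione transferase GSTM2 (-0.84 ± 0.15, adjusted p = 0.0035) leading. At Acute 24 h, 8 passed higher (11.9%, beside 8.38%) and 4 lower (5.97%, beside 7.09%), led by SESN2, a stress-induced leucine sensor (1.39 ± 0.36, adjusted p = 0.024), and by the iron exporter SLC40A1 (-1.29 ± 0.28, adjusted p = 0.014). The median over the 67 was 0.13 and -0.081. In the fit lacking replicate 1 of Acute 24 h, 25 and 11 passed higher (37.3% and 16.4%, beside 19.9% and 11.1%) and 3 and 6 lower. NFE2L2 and KEAP1 belong to the 9 regulators. In the fit of all libraries, 1, 3, 1 and 1 of the 9 passed higher in the 4 comparisons of 1 mM. Of all genes, 8.04%, 8.38%, 1.27% and 0.118% were called higher there. NFE2L2 itself passed in none of them, and KEAP1 only at Acute 24 h (0.44 ± 0.13, adjusted p = 0.040).

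At 1 µM the list genes that passed in the fit of all 15 libraries were all lower. TXNIP, which binds and inhibits thioredoxin, had 955 ± 212 TPM in PBS, 125 ± 3.73 at Acute 1 h and 286 ± 91.1 at Chronic 1 h, and fell at Acute 1 h (-2.88 ± 0.16, adjusted p = 1.6e-07), Acute 24 h (-0.61 ± 0.15, adjusted p = 0.041) and Chronic 1 h (-1.70 ± 0.15, adjusted p = 4.7e-05). Of 64 list genes, 0 passed higher and 2, 3, 1 and 0 lower in the 4 comparisons (3.12%, 4.69%, 1.56% and 0.00%, beside 2.52%, 1.91%, 0.834% and 0.0% of all genes lower). Beside TXNIP these were AKR1C1 at Acute 1 h (-0.69 ± 0.18, adjusted p = 0.040), and at Acute 24 h MAFF (-1.01 ± 0.26, adjusted p = 0.048) and GSTM3 (-0.61 ± 0.15, adjusted p = 0.042). With the 3 libraries of high mitochondrial share left out, 1, 0, 2 and 0 of 63 passed higher and 1, 8, 1 and 0 lower, beside 5.57%, 5.52%, 4.05% and 0.0% of all genes higher and 5.7%, 5.88%, 3.16% and 0.0% lower, and TXNIP still fell at Acute 1 h (-3.04), Acute 24 h (-0.62) and Chronic 1 h (-1.68). In the time course MAFF rose on each day, by 1.37 ± 0.18, 1.38 ± 0.18, 1.42 ± 0.18 and 1.57 ± 0.19, from 7.09 ± 0.717 TPM in AA, and 2, 5, 3 and 1 of 65 list genes passed higher (3.08%, 7.69%, 4.62% and 1.54%, beside 1.89%, 4.77%, 2.58% and 1.23% of all genes) and 0, 2, 0 and 0 lower. The 2 lower at 3 Day were TXNIP (-1.39 ± 0.24, adjusted p = 0.0029) and GSTM1 (-1.78 ± 0.50, adjusted p = 0.041, from a mean of 1.70 TPM in AA). EPHX1 was among the 5 higher at 3 Day (0.59 ± 0.11, adjusted p = 0.0050). With the agonists 0 of 62 passed.

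Since SLC7A11 is also a target of ATF4, the factor of the amino acid and integrated stress responses, 11 ATF4 targets (ATF4 itself among them) were counted beside it. At 1 µM, 2 of 11 rose at Acute 1 h, ATF3 (0.97 ± 0.22, adjusted p = 0.019) and the serine synthesis enzyme PSAT1 (0.68 ± 0.12, adjusted p = 0.0032), and 2 at Acute 24 h, the amino acid transporter SLC7A5 (1.26 ± 0.29, adjusted p = 0.031) and PSAT1 (0.92 ± 0.12, adjusted p = 0.00073). ATF4 itself was the 1 of 11 that rose at Chronic 1 h (0.69 ± 0.13, adjusted p = 0.010), 0 rose at Chronic 24 h, and 0 fell in the 4 comparisons, where 3.25%, 1.4%, 1.75% and 0.0% of all genes were called higher. With the same 3 libraries left out, 6, 5, 3 and 0 of 11 passed higher and 1, 1, 0 and 0 lower, and the 5 values just given passed still (0.65 to 1.20, adjusted p up to 0.0030). Of all genes, 5.57%, 5.52%, 4.05% and 0.0% were called higher in that fit. At 1 mM, 2, 6, 3 and 0 of 11 passed higher (beside 8.04%, 8.38%, 1.27% and 0.118% of all genes) and 2, 1, 1 and 1 lower, with ATF3 at 3.34 ± 0.43 at Acute 1 h and DDIT4 between -1.55 ± 0.30 and -2.16 ± 0.31. Without replicate 1 of Acute 24 h, 8, 6, 6 and 4 passed higher, beside 19.9%, 11.1%, 9.25% and 3.06% of all genes. In that fit 2, 2, 1 and 2 passed lower, beside 19.9% of all genes lower at Acute 1 h. In the time course 2, 1, 2 and 1 passed higher, beside 1.89%, 4.77%, 2.58% and 1.23% of all genes. These were ATF3 on each day (0.99, 1.30, 1.23 and 1.20) and TRIB3 at 2 Day (0.87) and 4 Day (0.86), and DDIT4 was lower at 3 Day (-0.57).

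The 5 genes whose pattern was most like that of HMOX1 over the 53 libraries, by Pearson's r of log2(TPM + 0.1) centred on the controls of each experiment, were DDIT3 (0.90), RCL1 (0.90), SCAF8 (0.90), MUL1 (0.89) and SLC30A1 (0.89), among 19098 genes with a mean TPM of at least 1. NQO1 ranked 12 (0.88), PRDX1 had 0.79, TXNRD1 0.65, SRXN1 0.48, TXN 0.33, SLC7A11 0.13, GCLC 0.042 and GCLM -0.17. These values share the zeros of replicate 1 of Quinpirole. Without that library and replicate 1 of Acute 24 h 1 mM, the first 5 were TMEM9B (0.77), VAMP3 (0.71), MUL1 (0.71), CDKN2AIP (0.70) and PIR (0.68), NQO1 ranked 10 (0.66) and TXNRD1 had 0.56, while SLC7A11 had 0.25.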

How the data were processed

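The RNA-seq data comprised 53 libraries of H9 hMSN-like cells, in 18 groups and 4 experiments. The authors trimmed and mapped the reads to GRCh38 with Ensembl 102 in CLC Genomics Workbench 21.0.5 and deposited 1 table of 60676 genes per library with counts of total exon reads, unique exon reads and total gene reads, and TPM. The deposited TPM equals exon reads per exon length scaled to the same sum in each library. The strand setting of the counting and the provider that sequenced each library are not given in the sources used here, so no batch was modelled, and overlapping genes may share reads.

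The groups came from the sample labels. Differences in total exon reads were tested in R 4.3.3 with edgeR 4.0.16 (filterByExpr with a minimum count of 10 and a minimum total of 15, TMM, glmQLFit, glmQLFTest), in 1 fit per experiment, against the control of that experiment. The doses were compared in a joint fit of 30 libraries. p-values were adjusted by Benjamini-Hochberg over all genes tested, and a gene passed at an adjusted p under 0.05. Each SE was obtained as the size of the log2(fold change) over the root of its F statistic. The test was checked on simulated data with the same spread for every gene and no library that stood apart in its gene levels. That check cannot speak to the effect of such a library on the calls. The alternatives were total gene reads, DESeq2 size factors, the DESeq2 1.42.0 Wald test, no filter on low counts, only the groups compared, replicate number as a block, a fold change threshold (log2 of 1 and a mean TPM of 1), and each library left out. Unique exon reads, fits without a library outside the groups compared or without 3 libraries of 1 µM, and the comparison of the 2 controls were added after seeing the data. In that comparison only replicate 1 of Acute 24 h 1 mM was left out. Promoters were taken from RefSeq. Tables were made in Python 3.11.15 (numpy 2.4.6, pandas 2.3.3, scipy 1.17.1) and plots with matplotlib 3.10.9.

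Exon reads per library ranged from 137051 to 27702963, and intervals or floors from counts (3 reads for a gene at 0) cover counting error only. No pair of libraries was identical. The 10 genes and the lists were chosen with earlier results of these data known. All 10 genes are named. List genes were named from up to 3 per direction and comparison with a control, those with the largest change among genes that passed with a mean TPM of at least 1. Not all of these are given for each comparison. SQSTM1, FTH1, FTL, NFE2L2 and KEAP1 were named outside this rule. GGT1 and SOD2 had no row of that exact name and were left out.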

Additional observations from a re-analysis of the deposited data

Results flagged for a closer look

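The change from control differed between experiments for 3 values. For SLC7A11 at Acute 1 h, the change at 1 mM minus that at 1 µM was -1.86 on the log2 scale (adjusted p = 0.042, edgeR, joint fit). SLC7A11 stood at 7.65 to 8.53 TPM after 1 mM against 6.45 to 8.51 in its PBS, and at 3.56 to 7.02 TPM after 1 µM against 1.10 to 2.00 in its PBS. For NQO1 at Chronic 1 h, the same difference was 1.54 (adjusted p = 0.016). Both calls were lost without single libraries, as given above.

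The change of NQO1 from PBS at Chronic 1 h 1 mM minus its change from AA at 5 Day was 1.58 (adjusted p = 0.0012), in the comparison chosen after seeing the data. Both groups received 1 mM dopamine on 5 days and were collected 1 h after the last dose. They differ in control and in experiment, which cannot be told apart. NQO1 was at 62.9 to 83.1 TPM in the first and at 30.2 and 36.5 TPM in the second, while the controls were at 19.3 to 22.5 TPM (PBS) and 30.5 to 35.6 TPM (AA). Of the 2 libraries of 5 Day, replicate 2 had a high mitochondrial share (12.1% of exon reads). The cause was not tested.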

How the results depend on the processing

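No value of the 10 genes that passed, here or under an alternative, changed direction. Of 230 values of single genes in the comparisons of 2 groups and the differences between them, 80 had another sign under at least 1 alternative without passing in either, such as OSGIN1 at Acute 24 h 1 mM (0.98, and -0.23 without replicate 1 of that group). Of 73 results of single genes followed through the alternatives because they passed in at least 1, 6 kept their side of the threshold under all of them. The number of the 10 genes that passed moved as follows, with the number in the text first and in parentheses, and each number is followed by the percentage of all genes called in either direction. At Acute 1 h 1 mM (2, 16.0%) it was 0 with the fold change threshold (4.1%), 5 with total gene reads (47.2%) and 7 with only the groups compared (45.5%). At Acute 24 h 1 mM (4, 15.5%) it was 2 with the fold change threshold (3.7%) and 0 with only the groups compared (0.0%). At Chronic 1 h 1 mM (2, 2.08%) it was 1 with the fold change threshold (0.82%), total gene reads (0.992%) or the replicate block (1.45%), 4 with DESeq2 (5.83%) or no filter on low counts (0.846%) and 7 with only the groups compared (25.4%). At Chronic 24 h 1 mM (2, 0.663%) it was 1 with the fold change threshold (0.298%) and 4 with only the groups compared (1.45%). For Chronic against Acute 1 h 1 mM (1, 11.3%) it was 0 with the fold change threshold (2.82%), 3 with total gene reads (40.1%), 2 with DESeq2 (15.5%) and 9 with only the groups compared (44.0%). For Acute 24 h against 1 h 1 mM (1, 3.49%) it was 4 with DESeq2 (13.6%) and 0 with the fold change threshold (1.02%), total gene reads (2.66%), the replicate block (1.55%) or only the groups compared (0.0243%). With only the groups compared it was 0 at Acute 1 h 1 µM (1, 5.77%, then 0.339%), 0 for Chronic against Acute 1 h 1 µM (1, 1.2%, then 0.0%) and 4 at 4 Day (0, 4.38%, then 13.5%), and 4 Day had 4 with no filter on low counts (4.96%). Chronic 1 h 1 µM (0, 2.58%) had 1 with DESeq2 (5.72%). Without the 3 libraries of 1 µM it was 2 at Acute 24 h 1 µM (1, 3.31%, then 11.4%). At 3 Day (1, 7.37%) it was 0 with the fold change threshold (1.35%), total gene reads (4.95%) or the replicate block (6.53%) and 2 with DESeq2 (9.1%) or no filter on low counts (6.35%). For the dose difference at Acute 1 h (1, 2.01%) it was 4 with total gene reads (27.9%) and 0 with the replicate block (1.62%) or without the 3 libraries of 1 µM (2.48%), at Acute 24 h (0, 0.663%) 1 with total gene reads (2.2%), at Chronic 24 h (0, 0.0109%) 1 with unique exon reads (0.0282%), no filter on low counts (0.0267%) or without the 3 libraries (0.0318%) and 2 with DESeq2 (0.602%). The comparison of the 2 controls (1, 0.665%) had 2 with DESeq2 (2.23%).

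With 1 library left out, the counts ranged from 1 to 6 at Acute 1 h 1 mM, 2 to 6 at Acute 24 h, 1 to 6 at Chronic 1 h, 1 to 9 at Chronic 24 h, 1 to 8 for Chronic against Acute, 0 to 6 for Acute 24 h against 1 h, 0 to 1 for Chronic against Acute 1 h 1 µM, 0 to 3 at 3 Day, 0 to 1 for the dose differences at Acute 1 h, Acute 24 h and Chronic 1 h, and 0 to 2 at Chronic 24 h. For the 2 controls only replicate 1 of Acute 24 h 1 mM, outside the groups compared, was left out, and the count was 5. The counts of 6 at Acute 1 h, 6 at Chronic 1 h, 9 at Chronic 24 h and 8 for Chronic against Acute at 1 mM, and of 2 for the dose difference, came without replicate 1 of Acute 24 h 1 mM, those of 6 at Acute 24 h and for Acute 24 h against 1 h without replicate 2 of that group (20.5% and 18.8% of all genes called), and 3 at 3 Day without 3 Day replicate 1 (10.2%). Same-numbered replicates did not deviate together in every pair, with r over 0.1 in 3 of 30 pairs at 1 mM, 14 of 30 at 1 µM, 4 of 26 in the time course and 1 of 9 with the agonists (mean r from -0.025 to 0.023), and the labels do not say that a number marks a shared culture. At 1 µM, where r ran from -0.30 to 0.45, the 3 libraries of high mitochondrial share are all replicate 2. The numbers were not taken to pair the samples, and the replicate block ended the calls of SLC7A11 (dose difference, Acute 1 h, adjusted p = 0.059), TXNRD1 (Chronic 1 h 1 mM, 0.052), GCLC (Acute 24 h against 1 h, 0.059) and NQO1 (3 Day, 0.050). Depth limits HMOX1, SLC7A11 and OSGIN1 at 1 µM. Except where given, the cause was not tested.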
